A study of Jatropha curcas with 15 samples.

Results

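Inflorescence buds of Jatropha curcas, an oilseed shrub of the spurge family, were compared at 48 h and at 24 h after treatment with 6-benzyladenine (BA), a synthetic cytokinin. The comparison took the 3 arrays labelled 48 h and the 3 arrays labelled 24 h, which are 6 of the 15 arrays of a time course that also covered 0, 3 and 12 h, and all 41651 non-control probes. Both groups were flower buds of 1-year-old field-grown plants treated with 1 mM BA in a solution with the detergent Tween-20, so both carried BA and differed in the time since treatment. The samples were taken 24 h apart, at the same hour of the day, so that a daily rhythm alone would give both time points the same level. Each time point had 3 biological replicates with 1 array each, and whether a replicate was 1 bud or a pool is not given in the sources used here. No bud without BA was measured at 24 or 48 h, so bud age and the time since BA cannot be told apart.

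Cytokinins are plant hormones that promote cell division in meristems, and they are sensed by histidine kinases that pass phosphate through carrier proteins to response regulators. The buds of J. curcas form male and female flowers, and MADS-box transcription factors, known as the A-, B-, C- and E-class genes, set the identity of the floral organs. Growth of the young bud also needs wall loosening, in which xyloglucan endotransglucosylase/hydrolases cleave and rejoin the xyloglucan chains that tie cellulose fibres together.

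Expression was read as the brightness of 60-base probes. The 60-mers of the named probes below, as designed for the array, are shown because the calls of wall, stress and transcription factor genes rest on 1 spot of each, from the coactivator gene MBF1c and the wall genes BRU1, XTH22 and EXO to an LOB domain gene. The last pair of probes, chosen after their values were seen, differ by 1 base (G17C, counted from the 5′ end of the first, in capitals) and so read nearly the same sequence.
MBF1c (CUST_1121): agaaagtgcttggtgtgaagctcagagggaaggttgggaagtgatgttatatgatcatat
BRU1 (CUST_12034): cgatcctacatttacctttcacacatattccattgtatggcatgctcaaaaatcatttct
XTH22 (CUST_14531): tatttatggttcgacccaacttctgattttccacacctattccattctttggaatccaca
EXO (CUST_1210): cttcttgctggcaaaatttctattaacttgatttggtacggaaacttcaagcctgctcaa
LOB domain protein (CUST_29171): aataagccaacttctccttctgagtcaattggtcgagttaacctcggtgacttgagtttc
CUST_10354: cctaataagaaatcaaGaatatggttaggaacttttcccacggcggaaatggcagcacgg
CUST_11348: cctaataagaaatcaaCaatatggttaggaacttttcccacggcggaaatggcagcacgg

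A level is given here as the log2 intensity minus the 75th percentile of its array, so that 0 is the brightness below which 75% of the probes of that array lay. Of the 41651 probes, 34449 were tested, which gave a signal clearly over the background on each of the 3 arrays of 1 or more time points. Such a signal is called above background here. Between 33478 and 34969 probes were above background on each of the 6 arrays, and no spot was saturated. Arrays of the same time point correlated at 0.992 or above over all tested probes, and arrays of different time points at 0.9896 or below. The 48-h arrays lay together on slide 4 and the 24-h arrays on slide 3, beside 12 h replicate 3, and both slides were scanned on the same day. Slide and time point therefore cannot be told apart in any value below, and 12 h replicate 3 is given beside some of the results as the 1 array of slide 3 from another time point.

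The floral organ-identity genes that mark flower buds were above background on all 6 arrays, and none of them passed the threshold between 48 h and 24 h. AP1 (CUST_7819), an A-class gene, had levels of 1.73, 1.66 and 1.54 at 48 h against 1.85, 1.64 and 1.57 at 24 h, and AP3 (CUST_10541), a B-class gene, had -0.94, -0.03 and -0.9985 at 48 h against -1.77, -0.74 and -0.66 at 24 h. The groups overlapped for both genes. The E-class genes SEP1 (CUST_15904), SEP2 (CUST_36715) and SEP3 (CUST_10402) had log2 fold changes of 0.07 ± 0.27, 0.11 ± 0.20 and 0.30 ± 0.40 (limma's standard error here and below), and AG (CUST_14761), the C-class gene, and STK (CUST_19879), which sets ovule identity, had 0.38 ± 0.19 and 0.61 ± 0.47. The adjusted p of these 7 probes lay between 0.235 and 0.936. The homolog of maize TASSELSEED2 (CUST_36773), a dehydrogenase gene needed for carpel abortion in maize, had levels of -0.95, -0.34 and -0.91 at 48 h against -0.95, -0.70 and -0.90 at 24 h, which overlapped.

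The clock gene GIGANTEA (GI, CUST_31665), whose expression runs in a daily rhythm in Arabidopsis, was measured beside the samples taken at the same hour. Its levels were -2.29, -2.30 and -2.44 at 48 h against -3.22, -3.16 and -2.73 at 24 h, while its means at 0, 3 and 12 h were -3.61, 0.14 and 2.82. GI was thus far below its 12-h level at both time points compared, and above its 0-h level on every array of both. Between 48 h and 24 h it was higher by 0.69 ± 0.13 on the log2 scale (adjusted p = 0.00781 in limma's moderated test), with no overlap between the groups, but less than 2-fold.

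Between 24 h and 48 h, 725 of the 34449 probes tested were called (2.1%), which means an adjusted p of at most 0.05 and a change of at least 2-fold. Of these, 248 probes (0.72% of those tested) were higher at 48 h and 477 (1.38%) were lower. The median log2 fold change over all tested probes was 0.01, and the middle 90% of probes lay between -0.64 and 0.55. Without the 2-fold threshold 2774 probes passed the adjusted p (8.05%) and the directions were even, with 1400 probes higher (4.06%) and 1374 lower (3.99%). The 48-h arrays did not overlap the 24-h arrays in 721 of the 725 called probes, which was also so in 31.1% of all tested probes. In these bulk samples, fewer cells of a type and less RNA per cell cannot be told apart. Among the arrays, the number of calls rested most on 24 h replicate 2, without which 464 probes were called. A slide term with a random effect left 565, but it cannot take the slide out of this comparison, since 24 h and 48 h each lay on 1 slide.

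**Figure D1:**
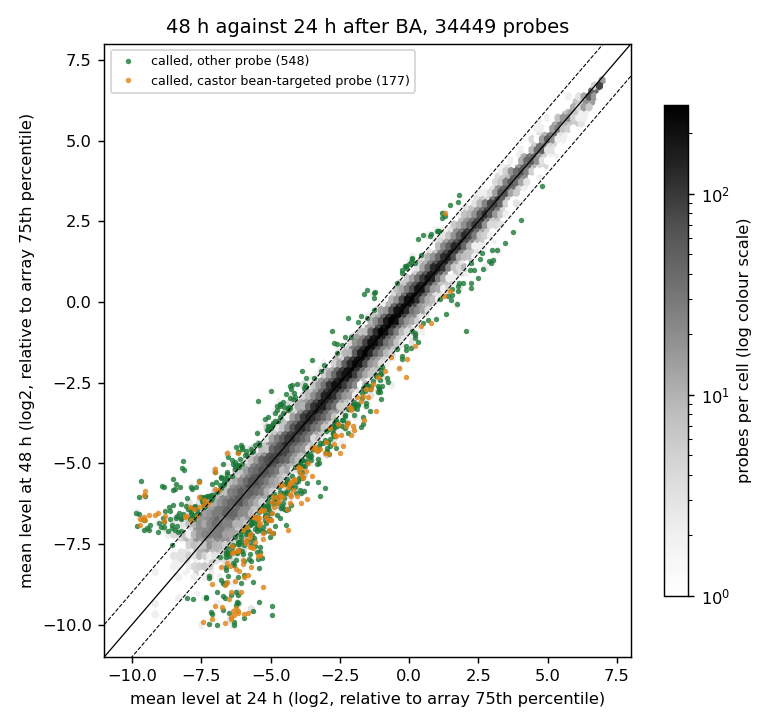
Each axis is the mean level of a probe on 3 arrays, on the log2 scale relative to the 75th percentile of the array, at 48 h (vertical) and 24 h (horizontal). Grey cells count the 34449 tested probes, coloured points are the 725 called probes, orange for the castor bean run and green for the others, and dashed lines mark a 2-fold difference. Most called probes lie at low levels, and the lower side holds more of them.

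Most of the called probes were dim. The 248 higher probes had a median level of -5.20 at 48 h and -6.60 at 24 h, and 46 of them differed at least 4-fold. The 477 lower probes had a median level of -5.96 at 48 h and -4.40 at 24 h, and 99 of them differed at least 4-fold. Of the higher probes, 66 had no 24-h array above background, and of the lower probes, 83 had no 48-h array above background, so these have only a bound on one side. Both groups of arrays measured the probe above background on all 6 arrays for 463 of the 725 calls.

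The time course of the called probes differed between the 2 directions. The lower probes had median levels of -5.77, -5.52, -4.95, -4.40 and -5.96 at the 5 times from 0 h to 48 h, and at 48 h 369 of the 477 (77.4%) were nearer to their 0-h level than at 24 h. The higher probes had median levels of -6.33, -6.62, -6.50, -6.60 and -5.20 at the same times, and 67 of the 248 (27%) were nearer to their 0-h level at 48 h. The fall thus left most of the lower probes nearer to the 0-h level, whereas most of the higher probes had a level at 48 h farther from that at 0 h. In 361 of the 477 lower probes the 0-h mean lay between the 24-h and 48-h means, so these fell past it. In 154 of the 248 higher probes it also lay between them, so these rose past it. These shares describe means of 3 arrays and carry no test, since the 24-h and 48-h arrays also chose the probes.

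The called probes were unevenly spread over the array design. The last 3362 probes of the design, from probe number 38290 on, form a run by the names of their targets. All 22 targets of this run that could be looked up had names beginning with bmcontig or EE, and none of 2879 targets before it did. These names give no species. The run was taken to be the castor bean flower sequences that the study's methods list among those collected, and its probes are called castor bean probes here. Castor bean (Ricinus communis) belongs to the same plant family as J. curcas. Of the 3362 probes of the run, 848 (25.2%) were bright enough to be tested, against 87.8% of the 38289 other probes. Of the castor bean probes tested, 177 were called (20.9%), 31 higher and 146 lower at 48 h, against 548 of 33601 other probes (1.63%), 217 higher and 331 lower. They thus made up 24.4% of all calls. A probe that was dim at most times could be tested if it was above background at a single time point. The share of 20.9% therefore holds for this filter. The castor bean calls numbered 276 with no filter on dim probes and 98 with the filter for all 6 arrays. How far the filter shaped the share, or the excess of lower probes, was not tested. The median log2 fold change was -0.24 over the castor bean probes and 0.01 over the others. Where the castor bean probes were left out before the fit and the adjustment, 531 probes were called, 212 higher and 319 lower.

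Among the tested probes, the share called was higher for castor bean probes at each level of brightness. With a mean level below -6 over the 15 arrays, 95 of 321 castor bean probes were called (29.6%), against 8.95% of the other probes. Between -6 and -4 it was 23.7% of the castor bean and 2.97% of the other probes, between -4 and -2 19% of the castor bean and 1.16% of the other probes, and at -2 and above 5.24% of the castor bean and 0.513% of the other probes. In each of these bands the castor bean probes had a median log2 fold change below 0, between -0.40 and -0.13.

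**Figure D2:**
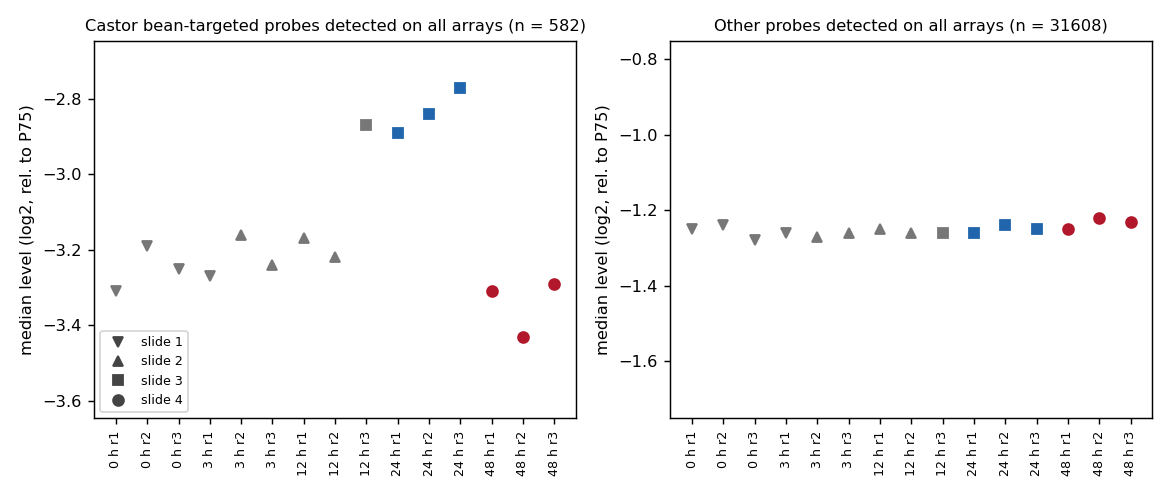
Median level (log2, relative to the 75th percentile of the array) on each of the 15 arrays, in the order of time, for the 582 castor bean probes (left) and the 31608 other probes (right) that were above background throughout. Marker shapes give the slide, red is 48 h, blue is 24 h and grey is 0 to 12 h. The 4 arrays of slide 3 (squares) lie between -2.89 and -2.77 on the left, above all other arrays, and with the others on the right.

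The median level of the castor bean probes was higher on the 4 arrays of slide 3 than on the other 11 arrays. The 582 of them above background on all 15 arrays had a median level of -3.31, -3.43 and -3.29 on the 48-h arrays against -2.89, -2.84 and -2.77 on the 24-h arrays. On 12 h replicate 3, the other array of slide 3, it was -2.87, whereas 12 h replicates 1 and 2, on slide 2, had -3.17 and -3.22. The arrays at 0 h and 3 h had between -3.31 and -3.16. The 31608 other probes detected on all arrays had a median level between -1.28 and -1.22 on every array.

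Among the called probes the same array differed from the other 12-h arrays toward the 24-h side in most of the lower ones. Toward the 24-h side means in the direction from the 48-h to the 24-h mean, and says nothing of the distance to the 24-h arrays. On 12 h replicate 3 the lower castor bean probes were higher than on the other 12-h arrays by a median of 0.70, and 118 of the 144 with a value moved toward the 24-h side. The lower probes outside the castor bean run were higher there by a median of 0.41, with 214 of 326 toward the 24-h side. The higher castor bean probes were lower there by a median of 0.42, with 20 of 31 toward the 24-h side. The higher probes outside the run had a median difference of -0.01, with 110 of 217 toward the 24-h side. Among all probes above background on every array, called or not, 411 of 582 castor bean and 16686 of 31608 other probes differed toward the 24-h side. The part of the slide in the calls was not tested, and 12 h replicate 3 also stood apart from the other 12-h arrays in AP3 (-2.27), SEP3 (-1.91) and STK (-1.99), which were not called between 48 h and 24 h.

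Of the 725 called probes, 26 had an informative name, 9 higher and 17 lower, of 777 tested probes with such a name. The rule for named probes took 25 of these, which follow by their role.

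**Figure D3:**
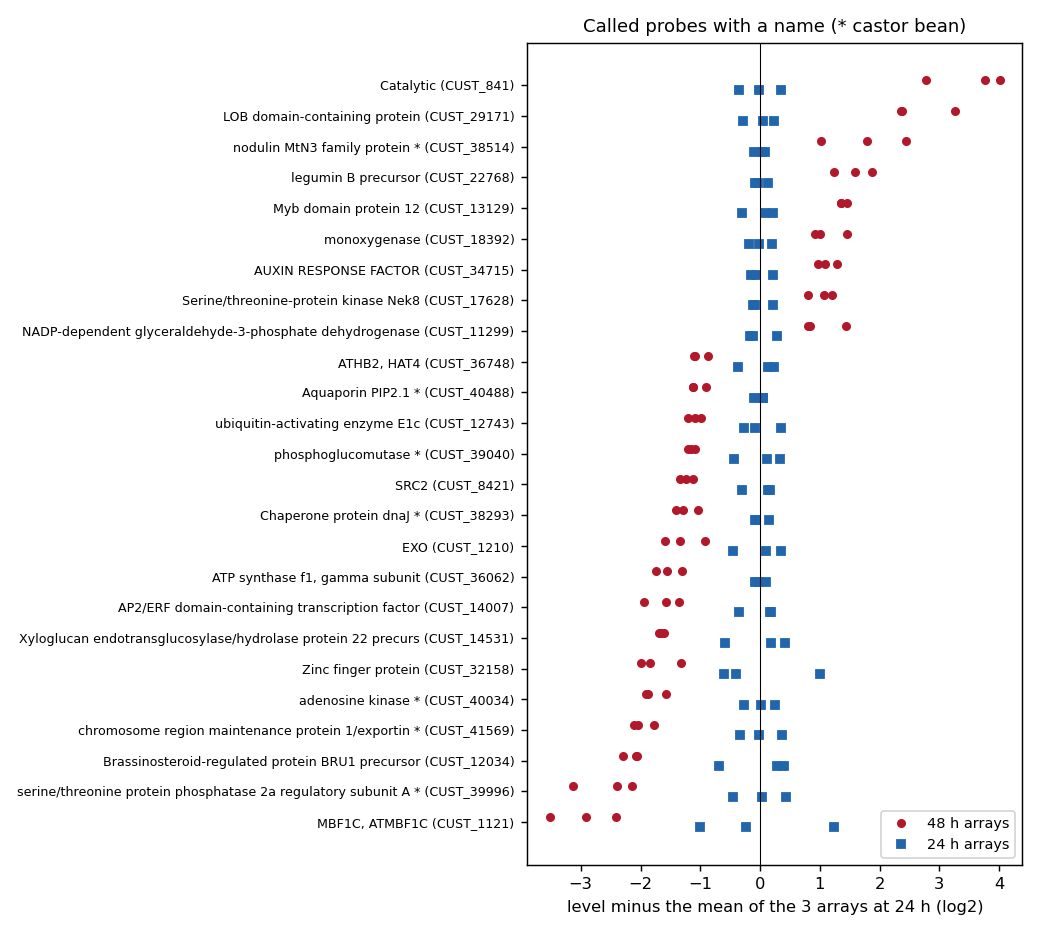
Each row is a called probe with a name, and points are the 3 arrays at 48 h (red circles) and at 24 h (blue squares), as the log2 level minus the mean of the 3 arrays at 24 h. A star marks a probe of the castor bean run. In each of the 25 rows the 48-h arrays lie on one side of all 24-h arrays. The rule that named the largest rises and falls required this, and it was also so in 31.1% of all tested probes.

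Of the 12 tested probes with cell wall or expansin descriptions, 3 were called, all lower at 48 h, where 1.38% of all tested probes were called lower. The descriptions of this and the other functional lists come from the study's own list of changed probes. Shares within these lists therefore cannot be compared with those over all tested probes. The log2 fold changes of the 12 ran from -2.14 to 1.58, with 8 below 0 and 4 above, and their median was -0.31 against 0.01 over all tested probes. BRU1 (CUST_12034), a brassinosteroid-regulated gene first described in soybean and related to xyloglucan endotransglucosylases, had levels of -3.94, -3.72 and -3.71 at 48 h against -1.37, -1.24 and -2.34 at 24 h. All 48-h arrays were below all 24-h arrays, and BRU1 fell by 2.14 ± 0.40 on the log2 scale (adjusted p = 0.00821 by limma). XTH22 (CUST_14531), a xyloglucan endotransglucosylase/hydrolase, had 1.86, 1.78 and 1.81 at 48 h against 3.64, 3.88 and 2.88 at 24 h, and fell by 1.65 ± 0.43 (adjusted p = 0.0353). EXO (CUST_1210), which in Arabidopsis promotes cell expansion downstream of brassinosteroids, had -3.30, -3.72 and -3.97 at 48 h against -2.28, -2.03 and -2.84 at 24 h, and fell by 1.28 ± 0.32 (adjusted p = 0.0302). In all 3 genes, 24 h replicate 3 was the lowest of the 24-h arrays.

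These 3 wall genes shared a time course in which the 48-h mean was the lowest. Their 0-h means were -1.67 for BRU1, 3.51 for XTH22 and -2.25 for EXO, close to those at 24 h (-1.65, 3.47 and -2.38), so the level at 48 h was below that at 0 h as well. On 12 h replicate 3 they were lower than on the other 12-h arrays by 1.55 in BRU1, 1.54 in XTH22 and 1.07 in EXO, which is away from the 24-h arrays of the same slide. Their levels there were -3.05, 1.99 and -2.89, so XTH22 lay close to its 48-h levels of 1.78 to 1.86 on that array. The calls of XTH22 (CUST_14531) and EXO (CUST_1210) rested on single arrays. XTH22 had an adjusted p of 0.0771 without 24 h replicate 1, 0.134 without 24 h replicate 2, and 0.0816, 0.0893 and 0.0899 without 48 h replicate 1, 2 or 3. EXO had 0.0663 and 0.122 without 24 h replicate 1 or 2, and 0.0801 and 0.103 without 48 h replicate 2 or 3. BRU1 remained called without any 1 of the 6 arrays.

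**Figure D4:**
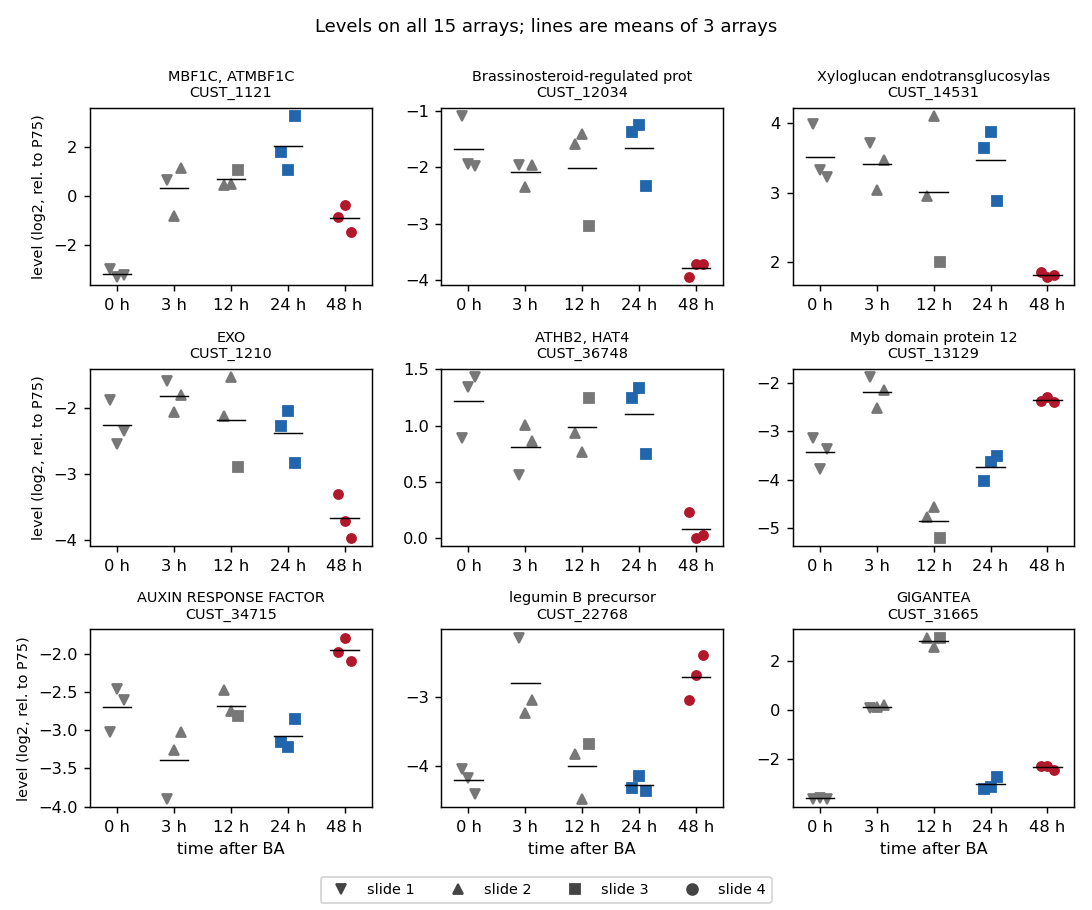
Level (log2, relative to the 75th percentile of the array) of 9 probes on all 15 arrays against the time after BA, with marker shapes for the slide, red for 48 h, blue for 24 h and short lines for the means of 3 arrays. The 3 wall genes and ATHB2 have their lowest levels at 48 h, MBF1C is below its 24-h level but above its 0-h level, and GIGANTEA peaks at 12 h.

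The stress coactivator MBF1c and a gene of the shade response were also lower. MBF1c (CUST_1121), a transcriptional coactivator of heat and drought responses listed with the ethylene genes, had -0.86, -0.36 and -1.47 at 48 h against 1.82, 1.06 and 3.29 at 24 h. It fell by 2.95 ± 0.54 (adjusted p = 0.00793), or 7.73-fold, and at 0 h it had lain still lower, at -2.98, -3.31 and -3.22. ATHB2 (CUST_36748), a homeodomain-leucine zipper factor of shade avoidance listed with the cytokinin genes, had 0.23, 0.00 and 0.02 at 48 h against 1.24, 1.33 and 0.75 at 24 h. It fell by 1.02 ± 0.19 (adjusted p = 0.00807), just past 2-fold. Without 24 h replicate 1 or 2, or 48 h replicate 2 or 3, ATHB2 (CUST_36748) fell by 0.91 to 0.99, under 2-fold, with an adjusted p of 0.0243 to 0.0412. MBF1c remained called without any 1 of the 6 arrays. On 12 h replicate 3, MBF1c and ATHB2 differed from the other 12-h arrays by 0.60 and 0.39, toward the 24-h side.

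An AP2/ERF domain gene, SRC2 and a zinc finger gene were lower at 48 h. The AP2/ERF domain gene (CUST_14007), of the family of ethylene response factors, had -2.44, -3.03 and -2.66 at 48 h against -0.92, -0.90 and -1.44 at 24 h. It fell by 1.63 ± 0.46, with an adjusted p of 0.0485, the weakest of the named calls, and it was lost in each of the 6 fits that left out 1 of the arrays compared (0.0751 to 0.15). SRC2 (CUST_8421), a homolog of a cold-induced soybean gene, had -0.56, -0.66 and -0.44 at 48 h against 0.81, 0.85 and 0.38 at 24 h, and fell by 1.23 ± 0.23 (adjusted p = 0.00806). A zinc finger gene (CUST_32158), 1 of the 12 probes that the study also chose for qRT-PCR, was above background on no 48-h array, where it read -8.59, -7.92 and -8.43 against -7.00, -7.20 and -5.59 at 24 h. It was at least 2.22-fold lower at 48 h (adjusted p = 0.0206), taking as its 48-h signal the dimmest above-background probe of each array, and without 48 h replicate 1 or 3 its adjusted p was 0.0692 or 0.066. At 12 h the zinc finger gene was higher still, with -5.25, -5.86 and -5.71. The AP2/ERF gene and SRC2 differed on 12 h replicate 3 from the other 12-h arrays by -1.54 and -0.62, away from the 24-h side.

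A pair of the lower probes outside the castor bean run read housekeeping genes and had a high level on all of slide 3. The gamma subunit of the F1 ATP synthase (CUST_36062), part of the rotor that makes ATP, had -4.54, -4.72 and -4.29 at 48 h against -3.07, -3.0031 and -2.88 at 24 h, and fell by 1.53 ± 0.20 (adjusted p = 0.00153). Its level was -3.08 on 12 h replicate 3, against -3.98 and -3.79 on the other 12-h arrays. The ubiquitin-activating enzyme E1c (CUST_12743) had -6.98, -7.08 and -6.86 at 48 h against -6.15, -5.96 and -5.54 at 24 h, and fell by 1.09 ± 0.27 (adjusted p = 0.0293). Its level was -5.57 on 12 h replicate 3, against -6.63 and -6.54. E1c (CUST_12743) lost its call without 24 h replicate 2 or 3 or any 1 of the 48-h arrays (adjusted p of 0.0653 to 0.0984).

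Of the named probes of the castor bean run, 7 were lower at 48 h and 1 was higher. An exportin probe (CUST_41569), for a carrier of proteins out of the nucleus, had -4.02, -4.09 and -3.76 at 48 h against -2.32, -2.01 and -1.62 at 24 h and fell by 1.97 ± 0.26 (adjusted p = 0.00135). An adenosine kinase probe (CUST_40034), for an enzyme that phosphorylates adenosine and cytokinin ribosides, had -6.55, -6.86 and -6.89 at 48 h against -5.25, -4.97 and -4.73 at 24 h and fell by 1.78 ± 0.28 (adjusted p = 0.00354). These read -2.07 and -4.93 on 12 h replicate 3, close to the 24-h arrays, and higher than on the other 12-h arrays by 1.09 and 1.07. Their 60-mers, taken here to be designed on castor bean sequence, are shown for that reason.
Exportin (CUST_41569): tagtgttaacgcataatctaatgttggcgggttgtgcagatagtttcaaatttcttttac
Adenosine kinase (CUST_40034): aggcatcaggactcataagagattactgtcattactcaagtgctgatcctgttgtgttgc

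The other lower probes of the run were a regulatory subunit of protein phosphatase 2A (CUST_39996), above background on no 48-h array and at least 3.47-fold lower, a dnaJ chaperone (CUST_38293, -1.25 ± 0.20), phosphoglucomutase (CUST_39040, -1.15 ± 0.25), the water channel PIP2.1 (CUST_40488, -1.05 ± 0.16) and a second phosphatase 2A probe (CUST_40068, -1.01 ± 0.13), which lay outside the 15 largest falls. The adjusted p of the first 4 lay between 0.00328 and 0.0156. These 4 were higher on 12 h replicate 3 than on the other 12-h arrays by 1.54, 0.71, 0.95 and 0.33. PIP2.1 read -3.23 on that array, below all arrays at 48 h and at 24 h. Phosphoglucomutase (CUST_39040), an enzyme of starch and sugar metabolism, lost its call without 24 h replicate 2 (adjusted p = 0.0657) or 24 h replicate 3 (adjusted p = 0.0596). The 1 higher probe, for an MtN3 family protein (CUST_38514), a family that includes sugar exporters, had -5.99, -5.23 and -4.56 at 48 h against -6.93, -7.12 and -6.98 at 24 h and rose by 1.75 ± 0.27 (adjusted p = 0.00331), and its level on 12 h replicate 3 differed by only -0.04 from the other 12-h arrays.

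The higher genes outside the run included transcription factors. The LOB domain gene (CUST_29171), of a plant family that acts at organ boundaries, had -6.15, -6.13 and -5.25 at 48 h against -8.45, -8.79 and -8.28 at 24 h, where it was above background on no array. It was at least 3.44-fold higher at 48 h (adjusted p = 0.000983), and its means at 0, 3 and 12 h lay between -9.13 and -8.47. Myb domain protein 12 (CUST_13129), a regulator of flavonol synthesis in Arabidopsis, had -2.38, -2.27 and -2.38 at 48 h against -4.03, -3.64 and -3.52 at 24 h and rose by 1.38 ± 0.21 (adjusted p = 0.00327). It had been lowest at 12 h, with a mean of -4.85, and had a mean of -2.18 at 3 h. A probe listed for AUXIN RESPONSE FACTOR genes (CUST_34715), whose products bind auxin-responsive promoters, had -1.98, -1.79 and -2.10 at 48 h against -3.15, -3.22 and -2.85 at 24 h and rose by 1.12 ± 0.21 (adjusted p = 0.00821). The lists name several ARF genes for this probe, so which ARF it reads is uncertain.

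The other named rises were legumin B, a probe named only as catalytic, a kinase, a monooxygenase and a dehydrogenase. Legumin B (CUST_22768), a seed storage protein, had -3.04, -2.68 and -2.39 at 48 h against -4.31, -4.13 and -4.36 at 24 h and rose by 1.56 ± 0.27 (adjusted p = 0.00574), with a mean of -2.80 at 3 h. The catalytic probe (CUST_841) had -6.75, -5.76 and -5.52 at 48 h against -9.17, -9.54 and -9.88 at 24 h, where it was above background on no array. It was at least 3.06-fold higher at 48 h (adjusted p = 0.00805), and its level was -6.82 on 12 h replicate 3 against -10.06 and -9.72 on the other 12-h arrays. A protein kinase of the Nek8 type (CUST_17628), a monooxygenase (CUST_18392) and NADP-dependent glyceraldehyde-3-phosphate dehydrogenase (CUST_11299), which makes NADPH in the cytosol, rose by 1.03 ± 0.12, 1.13 ± 0.21 and 1.02 ± 0.19 (adjusted p = 0.000877, 0.00873 and 0.00837). The kinase and the dehydrogenase had their lowest levels at 12 h, with means of -7.47 and -3.58. Without 48 h replicate 2 these rises were 0.94, 0.96 and 0.82, under 2-fold, in CUST_17628, CUST_18392 and CUST_11299. Those of CUST_17628 were also under 2-fold without 24 h replicate 1 (0.98) or 2 (0.97), and those of CUST_11299 without 24 h replicate 2 (0.96) or 3 (0.94).

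The conditions for naming, arrays that do not overlap and a signal above background on all 3 arrays of the brighter time point, were also applied to probes without a name. By fitted log2 fold change, the 3 largest rises that met them were above background on no 24-h array and were at least 4.20-fold higher at 48 h for CUST_32675, 3.42-fold for CUST_39910, of the castor bean run, and 2.97-fold for CUST_34765. These are bounds, so their order against the measured changes of the named probes is not known. CUST_32675 read -6.32, -5.57 and -4.77 at 48 h against -9.35, -9.69 and -10.02 at 24 h, and between -10.26 and -9.24 on the 9 earlier arrays. It was thus brighter on every 48-h array than on any of the 12 earlier arrays. The 3 largest fitted falls that met them were above background on no 48-h array and were at least 6.93-fold lower for CUST_33190, 5.04-fold for CUST_5469 and 4.30-fold for CUST_32307. CUST_33190 read -9.88, -9.12 and -9.31 at 48 h against -5.48, -4.44 and -4.96 at 24 h, and it had been equally dim at 0 h, with -8.97, -9.79 and -9.88. CUST_32307 had the same course, whereas CUST_5469 had a mean of -7.38 at 0 h and read -9.41, -9.22 and -9.24 at 48 h.

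The pair of probes that differ by 1 base fell together. CUST_10354 had -5.67, -6.13 and -5.52 at 48 h against -2.56, -2.72 and -3.81 at 24 h, and CUST_11348 had -5.98, -6.26 and -5.76 at 48 h against -2.77, -2.89 and -3.96 at 24 h. The falls of 2.74 ± 0.58 and 2.79 ± 0.58 (adjusted p = 0.0148 and 0.0136) come from separate spots that share their target, so they are not 2 independent genes. Array by array, the pair differed by less than the change between the time points.

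Over the lists of the 8 hormones, 3 probes were called, where 2.1% of all tested probes were: the ARF probe higher among 27 tested auxin probes, ATHB2 lower among 27 cytokinin probes and MBF1c lower among 10 ethylene probes. None was called among 23 abscisic acid, 12 brassinosteroid, 8 gibberellin, 12 jasmonic acid and 6 salicylic acid probes, of which 3 passed the adjusted p alone. The medians of the 8 lists lay between -0.43 (jasmonic acid) and 0.08 (abscisic acid). The gibberellin receptor gene GID1B (CUST_7668) had levels of -0.80, -0.72 and -0.40 at 48 h against -1.61, -1.40 and -1.40 at 24 h, higher by 0.83 ± 0.22 (adjusted p = 0.0356) but under 2-fold. In the cytokinin list ACR4 (CUST_36754) was higher by 0.78 ± 0.21 (adjusted p = 0.0373) and the proteasome subunit gene RPN12a (CUST_5445) was lower by 0.60 ± 0.15 (adjusted p = 0.0287), both without overlap and under 2-fold. The response regulator gene ARR3 (CUST_36727) changed by -0.71 ± 0.34 on the log2 scale (adjusted p = 0.226).

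Of the 32 probes of the study's flowering list, 29 were tested and 1 was called, the ARF probe above, against 2.1% of all tested probes, so the count says nothing particular of the list. The median of the list was 0.07. AGAMOUS-LIKE 20 (CUST_225), the SOC1 gene that promotes flowering, had the lowest log2 fold change, -1.13 ± 0.54 (adjusted p = 0.22). The qRT-PCR list, which the study chose on these samples and so is not independent evidence of a direction, had 11 tested probes, with CUST_841 and CUST_13129 called higher and CUST_32158 lower.

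**Figure D5:**
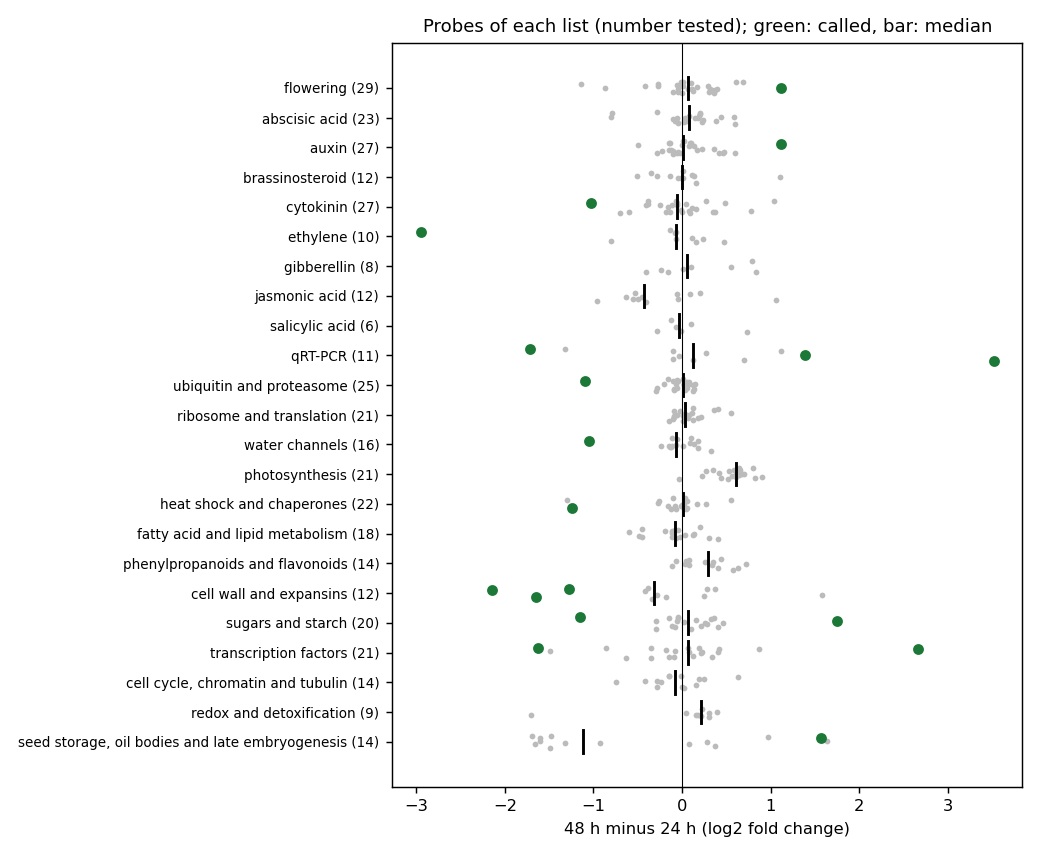
Log2 fold change at 48 h relative to 24 h of each tested probe of the flowering, hormone, qRT-PCR and functional lists, with the number tested in brackets, green points for called probes and black bars for the median of the list. The photosynthesis list lies above 0 in 20 of 21 probes with none called, and the seed list splits into 8 probes below 0 and 6 above.

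Photosynthesis genes had log2 fold changes mostly above 0 and none reached 2-fold. Of 21 tested probes, 20 had a log2 fold change above 0, the median was 0.60 against 0.01 over all tested probes, and none was called. The median level of the list was 2.20, 2.69 and 2.17 on the 48-h arrays against 1.98, 1.48 and 1.52 on the 24-h arrays, after 2.54 at 0 h and 0.91 at 12 h. By adjusted p alone 6 probes were higher (28.6% against 4.06% of all tested probes), among them the chlorophyll a/b binding protein probe CUST_5497, with 1.24, 1.64 and 1.10 at 48 h against 0.95, 0.12 and 0.19 at 24 h. It was higher by 0.90 ± 0.24 (adjusted p = 0.0375). Chlorophyll a/b binding proteins gather light for the photosystems, and several probes of the list carry the same name, so the probes are not all independent genes. The list was also drawn from the study's changed probes, so its share cannot be compared with that over all tested probes. Without 24 h replicate 2 no probe of the list passed the adjusted p, and without 24 h replicate 1, the highest of the 24-h arrays, 10 did. In a fit to the 6 arrays alone 0 of the 21 passed it.

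Of the 14 tested probes for phenylpropanoids and flavonoids, 2 were higher by adjusted p alone, where 4.06% of all tested probes were. The list was drawn from the study's changed probes, so these shares cannot be compared. Phenylalanine ammonia-lyase (CUST_17518), the first enzyme of the pathway, had 1.59, 1.65 and 1.64 at 48 h against 0.76, 1.00 and 0.94 at 24 h and was higher by 0.72 ± 0.11 (adjusted p = 0.00277). Cinnamoyl-CoA reductase (CUST_3004), which leads to lignin, had 1.26, 1.46 and 1.28 at 48 h against 0.47, 0.74 and 0.89 at 24 h and was higher by 0.63 ± 0.16 (adjusted p = 0.0344). The groups did not overlap in either gene, which was also so in 31.1% of all tested probes. None of the 14 probes of the list was called, and the median was 0.30.

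Of the 14 tested probes for seed storage, oil bodies and late embryogenesis, 8 lay below 0, all of them for oleosin 2, and 6 above. All 8 probes for oleosin 2, a coat protein of oil bodies, had lower levels on every 48-h array than on any 24-h array, an absence of overlap that held for 31.1% of all tested probes, with log2 fold changes of -1.70 to -0.92, but none was called, with an adjusted p of 0.0698 to 0.145. The median level of the 8 probes was -6.05, -6.05 and -5.42 on the 48-h arrays against -4.67, -4.31 and -3.74 on the 24-h arrays. At 0 h it lay between -9.49 and -8.88, and at 12 h it spread over -3.77, -6.59 and -5.33. That spread enters the error of the fit to all 15 arrays, and in a fit to the 6 arrays alone 7 of the 8 were called (adjusted p of 0.0176 to 0.0401). These 8 probes share a name and are not independent genes. Oleosin1 (CUST_20598), another coat protein of this kind, had a log2 fold change of 0.08. Legumin B rose (above), and a late embryogenesis abundant probe (CUST_20906) had -4.30, -4.18 and -4.62 at 48 h against -5.30, -5.44 and -5.26 at 24 h, higher by 0.97 ± 0.16 (adjusted p = 0.00508). Another late embryogenesis abundant probe (CUST_21582) was not called in the fit to all 15 arrays. In the fit to the 6 arrays alone it was called, higher by 1.64 (limma's adjusted p = 0.00764), as was legumin B.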

How the data were processed

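Total RNA of the buds was labelled with Cy3 and hybridised to 1-colour Agilent arrays, 1 array per replicate. The authors extracted the spot intensities with Agilent Feature Extraction 10.7.3.1. They deposited its processed intensities without scaling between arrays, with the median spot and background intensities as scanned. They also deposited a table of log2 values for all arrays, of which 99.99% lay within 0.1 of quantile-normalized log2 intensities. No genome enters, since probes were designed on transcript sequences.

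Here the 75th percentile of each array's log2 processed intensity was subtracted. Control spots and outlier spots were dropped, and 236 probes with 10 spots were averaged over them. Probes without a time point at which all 3 arrays carried the flag of a signal well above background were left out, as were 5 without a value at a time point, which leaves 7202 untested. All 15 arrays were fitted with limma 3.58.1 in R 4.3.3, with 1 mean per time point (2.55 prior degrees of freedom), and the contrast of 48 h with 24 h was tested with Benjamini-Hochberg adjustment over the 34449 probes. Error terms are limma's standard errors. A call needs an adjusted p of at most 0.05 and a 2-fold change, after the thresholds in the study's methods, which name no test. A probe without that flag at a time point is given as a bound, with its signal on those arrays raised to that of the dimmest flagged probe where it lay below it. The fit was tested on simulated data. The number of arrays limits precision, and the median SD within a time point was 0.122 at 48 h and 0.144 at 24 h.

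Names come from the study's tables, because the array files hold none. Of the long lists, 966 entries of changed probes and 1993 of designed probes were read, so 777 tested probes have an informative name, and descriptions with an E-value above 1e-05 were not used. Descriptions were read from the changed probes alone, so the functional lists hold only probes that the study had found changed. Named in the text are called members of the flowering, hormone and qRT-PCR lists, up to 15 rises and 15 falls with an informative description and arrays that do not overlap, the 3 largest of each whatever their name, up to 4 called members of each functional list, and the flower markers. The comparison, its members and the lists were chosen with earlier results of these data known. Alternatives were other scalings, the deposited log2 table, background corrections, filters, slide and replicate blocks, fits without moderation or to 6 arrays, and fits without 1 array. Chosen after seeing the data were normexp with a uniform background, an offset of 50 on the processed intensity, and the castor bean probes left out.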

Additional observations from a re-analysis of the deposited data

How the results depend on the processing

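Of the 725 calls, 705 were kept under quantile normalization, 701 with the deposited log2 table, 697 with a filter on 24 h or 48 h alone and 563 with slide as a random block (correlation 0.0657), and these settings gave 781, 782, 707 and 565 calls. With slide as a random block, XTH22 (CUST_14531), the AP2/ERF gene (CUST_14007) and E1c (CUST_12743) lost their calls, with an adjusted p of 0.0546, 0.0726 and 0.0608. This block cannot separate the slide from the time point here. A filter for all 6 arrays gave 460 (133 higher), an offset of 50 on the processed intensity 460 (112 higher), normexp with a uniform background 405 (88 higher, 317 lower), and no filter on dim probes 938 (411 higher). Plain normexp left 3 calls (1 higher, 2 lower), with 4066 probes at an unadjusted p under 0.05, because spots with an uneven local background reached -6414 on 24 h replicate 1 and -23246 on 0 h replicate 3 and set its fit. The share of higher probes was 34.2% of the calls, 49.2% without scaling, which shifts all probes by 0.12, and 21.7% under normexp with a uniform background. The castor bean calls (177) numbered 276 without a filter, 98 with the filter for all 6 arrays, 117 with the offset, 99 under normexp with a uniform background and 0 under plain normexp. The 17 called list members numbered 28 in the fit to 6 arrays alone and 0 under plain normexp. Of the 31 called named probes, 20 passed the filter for all 6 arrays and were called, 0 were called under plain normexp, 17 remained called under every other setting in which they were fitted (the castor bean probes have no value where that run is left out), and 21 when any 1 of the 6 arrays was left out.

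With each of the 15 arrays left out in turn, the calls numbered 464 (without 24 h replicate 2) to 816 (without 12 h replicate 2), with 132 to 274 higher and 332 to 550 lower, 11 to 26 list members, 23 to 31 named probes and 136 to 182 castor bean probes. Uncalled floral probes near 0 changed sign: AG to -0.33 under plain normexp (CUST_14761), AP1 (CUST_7819, -0.099 without 24 h replicate 3) to 0.079 without scaling and to 0.040 and 0.0099 without 24 h replicate 1 or 48 h replicate 3, SEP1 to -0.091 and -0.095 without 24 h replicate 1 or 48 h replicate 2 (CUST_15904, 0.26 without 24 h replicate 2), SEP2 to -0.00045 under normexp with a uniform background (CUST_36715), and TASSELSEED2 to -0.078 without 48 h replicate 2 (CUST_36773, 0.23 without 48 h replicate 1). A block for the replicate number gave 691 calls, 222 higher and 469 lower, of which 670 were among the 725. Deviations from the time-point means, between arrays of different time points, correlated at -0.27 to 0.37 for the same number and at -0.33 to 0.41 for other numbers. Of the 15 arrays, 6 correlated best with their own number. This shows no pairing by number but cannot exclude one, since each of these means rests on only 3 arrays. The methods call the replicates biological without saying whether they came from separate plants, and the p-values measure the spread between these samples. Signal over background limits the dim probes, since 262 of the 725 calls were not well above background on all 6 arrays.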

Other observations

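Some named genes differed between 48 h and 24 h by less than 2-fold with a small spread. GROWTH-REGULATING FACTOR 1 (CUST_34259), a transcription factor of leaf and organ growth in Arabidopsis, had levels of -1.07, -0.81 and -0.89 at 48 h against -1.78, -1.68 and -1.90 at 24 h, a log2 fold change of 0.86 ± 0.14 (adjusted p = 0.00401 by limma). Histone H4 (CUST_23465), which packs newly made DNA, had 1.63, 1.72 and 1.80 at 48 h against 2.14, 2.66 and 2.60 at 24 h, a change of -0.75 ± 0.14 (adjusted p = 0.00821). The groups did not overlap in either gene, which was also so in 31.1% of all tested probes. Of the 14 tested probes for cell cycle, chromatin and tubulin, 9 lay below 0, with a median of -0.08 and no call. An ftsH protease probe (CUST_33459) had 0.81, 1.17 and 0.89 at 48 h against 0.45, 0.24 and 0.30 at 24 h, a change of 0.63 ± 0.12 (adjusted p = 0.00986).

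In the list of fatty acid and lipid metabolism, 12 of 18 probes lay below 0 and none was called, and in that of ribosome and translation, 14 of 21 lay above 0 and none was called, with medians of -0.07 and 0.03. The 1 pollen probe, for a pollen allergen (CUST_37684), had -2.79, -3.44 and -2.65 at 48 h against -5.03, -3.18 and -5.40 at 24 h, where 24 h replicate 2 overlapped the 48-h arrays, a change of 1.58 ± 0.80 (adjusted p = 0.245). At 0, 3 and 12 h its means were -7.44, -7.30 and -7.28. The arrays at 24 h thus spread more in this probe than those at 48 h.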
